A study of Mus musculus with 34 samples.

Results

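The 10 genes described here encode heat shock chaperones of the cytosol and of the mitochondrion: Hspa1a, Hspa1b, Hspa8, Hsph1, Hsp90aa1, Hsp90ab1, Dnajb1, Hspb1, Hspd1 and Hspe1. They were picked by gene symbol, with no threshold on their values, from the 55487 gene IDs of 2 tables of mouse liver RNA sequencing, as a contrast to the chaperones of the endoplasmic reticulum (ER). All 10 are in both tables and all 10 passed the filter on low values. The mice were male and 3 months old. The first table holds 5 libraries from PiZ p50KO mice given PBS, 5 from PiZ mice given PBS, 6 from wild-type (WT) mice given TNFa for 2 hours and 6 from WT mice given PBS. The second holds 6 libraries from WT mice given tunicamycin for 24 hours and 6 from WT mice given its vehicle, DMSO. All agents were injected into the peritoneum. PiZ mice express human alpha-1 antitrypsin with the Z mutation, a secreted liver protein whose molecules polymerise in the ER of hepatocytes. The PiZ p50KO animals carry the same transgene and are labelled as homozygous knockouts of p50, the NF-kB subunit encoded by Nfkb1. The labels give no transgene promoter, no dose of the agents and no statement on whether animals were pooled, and each table is labelled as 1 batch. TNFa is an inflammatory cytokine, and tunicamycin blocks N-glycosylation and so causes unfolded protein in the ER.

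Cells answer unfolded protein by compartment. In the cytosol and nucleus, HSF1 is held back by chaperones; when these are drawn off to unfolded protein it binds heat shock elements and raises the HSP70, HSP40, HSP110, HSP90 and small heat shock protein genes. In the ER, unfolded protein acts through IRE1, PERK and ATF6 and raises a separate set of chaperones, led by BiP (Hspa5) and GRP94 (Hsp90b1). Mitochondria fold imported proteins with the chaperonin HSP60 and its lid HSP10, whose genes also answer to HSF1. Liver contains much of the constitutive members Hspa8 and Hsp90ab1, while Hspa1a and Hspa1b are the classical heat-inducible HSP70 genes.

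The regulatory sequences of the members differ from those of the ER chaperones in the letters they hold, and are shown for that reason. Promoter windows of 300 bases (250 before to 50 after a gene's start) were found for 7 of the 10 members in the RefSeq table (GRCm38.p6); none was used for Hspa8, Hsp90aa1 and Hsp90ab1. The bases before the start are printed below, each on the strand of the gene named first, for the HSP70 pair, the shared stretch between the 2 mitochondrial genes, Hsph1, Hspb1 and, as the contrast, Hspa5. Capitals mark heat shock units, GAANNTTC or TTCNNGAA, in the members and the ER stress element in Hspa5.
Hspa1a, chr17:34972157-34972406, minus strand: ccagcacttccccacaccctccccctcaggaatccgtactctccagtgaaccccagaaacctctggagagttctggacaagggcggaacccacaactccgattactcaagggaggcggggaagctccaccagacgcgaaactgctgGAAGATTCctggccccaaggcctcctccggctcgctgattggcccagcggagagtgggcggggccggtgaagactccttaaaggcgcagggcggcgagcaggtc
Hspa1b, chr17:34959239-34959488, minus strand: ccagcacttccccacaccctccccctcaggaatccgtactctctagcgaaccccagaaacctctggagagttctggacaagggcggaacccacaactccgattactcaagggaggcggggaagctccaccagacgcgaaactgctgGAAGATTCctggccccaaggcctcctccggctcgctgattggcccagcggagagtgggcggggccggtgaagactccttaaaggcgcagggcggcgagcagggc
Hspe1 and Hspd1, chr1:55087933-55088147, plus strand: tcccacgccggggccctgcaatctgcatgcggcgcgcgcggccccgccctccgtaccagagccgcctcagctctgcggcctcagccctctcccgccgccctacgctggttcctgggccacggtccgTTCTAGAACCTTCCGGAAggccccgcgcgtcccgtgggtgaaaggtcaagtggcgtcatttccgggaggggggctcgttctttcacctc
Hsph1, chr5:149636337-149636586, minus strand: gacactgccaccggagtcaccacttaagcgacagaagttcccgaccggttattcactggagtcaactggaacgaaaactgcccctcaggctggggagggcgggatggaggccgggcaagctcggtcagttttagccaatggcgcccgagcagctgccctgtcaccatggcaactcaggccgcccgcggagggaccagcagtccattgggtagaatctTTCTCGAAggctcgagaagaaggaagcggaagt
Hspb1, chr5:135887669-135887918, plus strand: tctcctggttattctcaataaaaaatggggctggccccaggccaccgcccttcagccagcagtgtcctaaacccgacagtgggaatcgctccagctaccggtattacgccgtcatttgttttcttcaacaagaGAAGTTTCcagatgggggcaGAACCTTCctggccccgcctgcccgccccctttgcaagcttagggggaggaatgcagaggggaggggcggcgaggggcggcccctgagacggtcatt
Hspa5, chr2:34771840-34772089, plus strand: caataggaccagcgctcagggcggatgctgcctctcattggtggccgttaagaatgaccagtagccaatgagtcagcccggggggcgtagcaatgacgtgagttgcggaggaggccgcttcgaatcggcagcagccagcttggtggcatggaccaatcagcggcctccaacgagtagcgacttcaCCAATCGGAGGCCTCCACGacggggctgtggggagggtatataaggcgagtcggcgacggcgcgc

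A pair of heat shock units was present in 6 of the 7 members with a window (all but Dnajb1) and in 0 of 13 ER chaperones. The share of all 32851 windows, searched on both strands, was 15.1%. Members and ER chaperones are counted as genes, and a gene with several windows counts once if any of them matches. The shares of all windows are per window and so are not the same measure. A run of 3 alternating GAA and TTC units, each 2 bases apart, was present in the windows of Hspd1, Hspe1 and Hsph1, against 0.603% of all windows; it contains the unit pairs. In the stretch between Hspe1 and Hspd1 this run is printed in capitals and serves both genes' windows, since their starts lie 216 bases apart in opposite directions, whereas in Hsph1 it lies after the start and is not printed. The ER stress element, CCAAT and CCACG held 9 bases apart, was in 0 of the 7 members and in 7 of the 13 ER chaperones (Calr, Canx, Creld2, Dnajc3, Hsp90b1, Hspa5 and Pdia6), against 0.119% of all windows. The Hspa1a and Hspa1b stretches are 98.8% identical, with 3 differences from Hspa1a to Hspa1b counted from 1 at the 5′ end (C44T, T47C and T249G), and share the same heat shock unit pair. These matches describe letters and not bound sites.

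Hspa1a and Hspa1b are also alike in their transcripts. Of the 100-base windows of the Hspa1a exons (chromosome 17, 34969190 to 34972156, GRCm38), 48.6% occur in another gene, mostly Hspa1b (chromosome 17, 34956436 to 34959238). The corresponding share was 31.6% for Hspa8 (chromosome 9, 40800984 to 40810087), 47.5% for Hsp90aa1 (chromosome 12, 110690605 to 110702728), 42.7% for Hspb1 (chromosome 5, 135887919 to 135889563) and 26.9% for Hspd1, each mostly with a gene named as a predicted gene or pseudogene. It was at most 0.347% for Hspe1, Hsph1, Hsp90ab1 and Dnajb1. Hspd1 (chromosome 1, 55077835 to 55088243) and Hspe1 (55088132 to 55091307) overlap head to head. How reads that fit several genes, or either strand, were counted is not given in the sources used here, so the split between these copies is uncertain.

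One library is set apart. WT PBS 2 had 10.2 M reads, against 35.5 to 54.0 M in the other libraries of the first table and 34.3 to 47.8 M in the second. Only 72.2% of its reads were of protein-coding genes, and its albumin (Alb) level was 12.2 log2 CPM (CPM are a gene's reads scaled to a library of fixed size), against 15.4 to 16.5 in the others of its table. The members followed no single direction in it. Hspd1 was at 5.25, Hspe1 at 4.68 and Hspb1 at 0.36 log2 CPM, all below every other library of the first table. So were Hspa8 (8.745) and Hsp90ab1 (8.232), whereas Dnajb1 alone, at 5.71, was above every other. It was left out of the tests below and is drawn as an open circle. Among the rest, Nfkb1 was at 4.51 and 4.86 log2 CPM in PiZ p50KO libraries 1 and 2 and at 3.31, 3.74 and 3.37 in libraries 3 to 5, against 4.62 to 5.58 in PiZ. The deleted stretch of Nfkb1 is not given, so these levels do not test the genotype. Nfkb1, itself a target of NF-kB, was at 4.77 in WT TNFa 4 and at 6.57 to 6.95 in the other 5 WT TNFa libraries. Ddit3, a transcription factor of the ER stress response, was at 5.22 in 1 tunicamycin library and at 8.30 to 9.99 in the other 5.

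Per kb of exon sequence, Hsp90ab1, Hspa8 and Hspd1 held the upper 3 places in every group. Group means of Hsp90ab1 were 7.67 to 8.24 and those of Hspa8 were 6.92 to 8.14 on the log2 CPM per kb scale and those of Hspd1 6.55 to 7.32; Hspd1 stood above Hspa8 in DMSO livers only (6.95 and 6.92). Hspe1 (5.85 to 6.80) came next and Hsp90aa1 (4.69 to 5.59) after it in all 6 groups. Hspb1, Dnajb1, Hsph1 and Hspa1b exchanged places between groups, and Hspa1a was last in all 6, at -1.74 to 0.32. The exon length includes bases shared with other genes. The places of Hspa1a, Hspa1b, Hspa8, Hsp90aa1, Hspb1 and Hspd1 therefore depend on how shared reads were counted, which is not given. Within a group, Hspa1a and Hspa1b had the widest spread between libraries in 5 of the 6 groups, with SDs of 0.42 to 1.82 and 0.60 to 1.78 log2 CPM over all 6; in tunicamycin livers Hspb1 (0.85) had the widest. The SDs of Hspd1 and Hspe1 were 0.066 to 0.32 and 0.12 to 0.26. Neighbours in the order whose means differ by less than such an SD, such as Hsp90ab1 and Hspa8 in PiZ livers (8.08 and 7.86), do not differ beyond their spread.

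**Figure D1:**
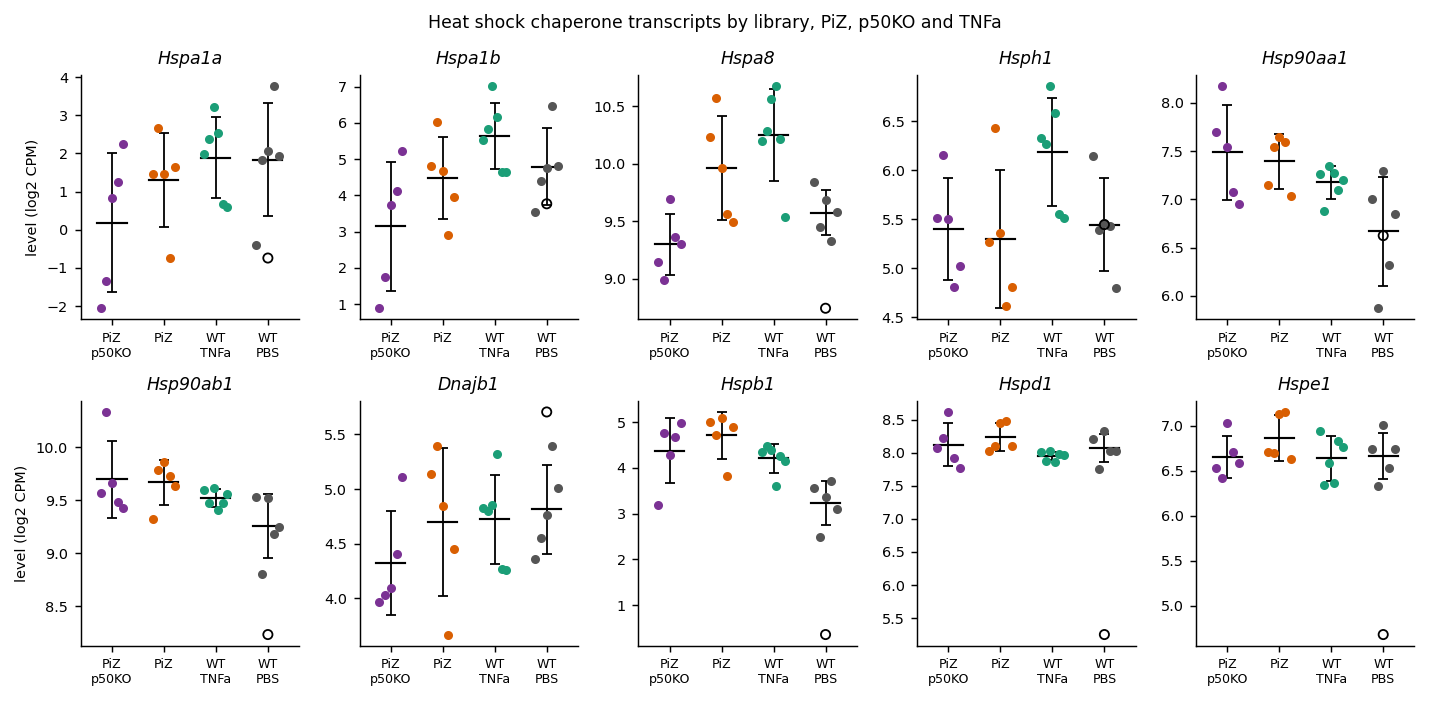
Level (log2 CPM) of each member in each library of the first table; filled points are libraries, bars are mean and SD, and the open circle is WT PBS 2, left out of both. Hspb1 is higher in all 5 PiZ libraries than in the 5 WT PBS libraries used, while the spread of Hspa1a and Hspa1b covers several log2 units within each group.

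In PiZ livers, in which the Z protein polymerises in the ER, the small heat shock protein gene Hspb1 was 2.77-fold higher than in WT livers, and the cytosolic HSP90 genes Hsp90aa1 and Hsp90ab1 were 1.65-fold and 1.33-fold higher. No heat-inducible HSP70, HSP110 or HSP40 member passed the test. In all, 3 of 10 members were higher by limma (adjusted p under 0.05), where 45.6% of the 13285 genes tested were higher, and 0 were lower, where 6.19% of genes were lower; at an unadjusted p under 0.05 the members' counts were also 3 and 0. The groups did not overlap for 1 member, Hspb1, and for 31.4% of all genes in the higher direction. The median log2 fold change of the members was 0.18, and that of all genes tested was 0.40. Of 16 ER chaperones 15 were higher, with a median of 1.13. Of all calls 88.1% were higher, a share that fell to 47.0% with quantile normalization and 43.6% with every library set to the same median; the members' median was then 0.04 and -0.31, while 14 and 10 ER chaperones were higher, with medians of 1.09 and 0.64.

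Hspb1, whose protein is an ATP-independent holdase that also binds actin and intermediate filaments, was at 5.01, 4.73, 5.10, 3.83 and 4.90 log2 CPM in the 5 PiZ libraries, against 3.55, 2.48, 3.36, 3.72 and 3.10 in the 5 WT PBS libraries. Every PiZ value was above every WT value, and the nearest pair was PiZ 4 and WT PBS 5. The log2 fold change was 1.47 ± 0.30 (SE; limma adjusted p = 0.00039), and it passed in all 18 alternative settings and omissions of a library, at 0.98 to 1.95. Markers of other liver cells moved with it. All 8 macrophage markers and all 8 stellate cell and fibroblast markers were higher in PiZ; the summed macrophage markers were 504 to 733 CPM in PiZ and 126 to 150 CPM in WT, and the stellate and fibroblast markers 597 to 956 CPM and 121 to 144 CPM. Cholangiocyte markers summed to 82.9 to 125 CPM in PiZ and 23.4 to 27.0 CPM in WT, with 4 of 5 tested higher, and hepatocyte markers to 71960 to 102400 CPM in PiZ and 98240 to 125900 CPM in WT, with 4 of 10 lower. Of 6 endothelial markers 5 were higher, and of 4 neutrophil markers tested 1. Of 7 muscle markers, Acta1, Ckm, Myh4, Tnnt3 and Mb missed the filter on low values. In each group 5 of the 7 were under 1 CPM in every library. Des and Myh11, the 2 tested, were higher, and Des is also counted among the stellate and fibroblast markers. The muscle list summed to 13.1 to 19.1 CPM in PiZ and 3.71 to 7.33 CPM in WT. Of 8 lymphocyte markers, 7 were under 1 CPM in every PiZ library and 8 in every WT library. In bulk liver, fewer cells of a type and less RNA per cell cannot be told apart, and the part of these cells in the Hspb1 difference was not tested.

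Hsp90aa1, the stress-inducible cytosolic HSP90, was at 7.15, 7.54, 7.65, 7.60 and 7.03 log2 CPM in PiZ libraries, against 7.005, 5.87, 7.29, 6.32 and 6.85 in WT PBS libraries. Those groups overlapped through WT PBS 4. The log2 fold change was 0.73 ± 0.24 (limma adjusted p = 0.0138). Hsp90ab1, its constitutive partner, was at 9.32, 9.79, 9.87, 9.72 and 9.64 log2 CPM in PiZ, against 9.53, 8.80, 9.53, 9.19 and 9.25 in WT; PiZ 1 lay among the WT values. Its log2 fold change was 0.41 ± 0.16 (limma adjusted p = 0.0345), about that of the median gene. With every library set to the same median, Hsp90aa1 was at 0.24 and no longer passed, and Hsp90ab1 reversed to -0.08. With quantile normalization Hsp90aa1 (0.55, adjusted p = 0.107) no longer passed and Hsp90ab1 still did. Hsp90ab1 also missed the threshold in 7 of 10 omissions of a single library: PiZ 2, 3, 4 or 5, or WT PBS 3, 5 or 6.

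The other 7 members did not pass in PiZ, and the signs of Hspa8, Hspd1 and Hspe1 turned to negative with libraries set to the same median (-0.10, -0.33 and -0.29). Hspa8, the constitutive HSC70 that also clears clathrin coats and serves chaperone-mediated autophagy, was at 9.49 to 10.57 log2 CPM in PiZ and 9.33 to 9.84 in WT, a log2 fold change of 0.39 ± 0.21 (limma adjusted p = 0.121). Hspa1b was at 2.92 to 6.02 in PiZ and 3.55 to 6.46 in WT, and Hspa1a at -0.73 to 2.67 in PiZ and -0.41 to 3.78 in WT; the 95% interval of the Hspa1b log2 fold change ran from -1.79 to 1.17, so differences of that size were not detectable. Dnajb1, the HSP40 that hands substrates to HSP70, had a log2 fold change of -0.11 ± 0.29, and Hsph1, the HSP110 that exchanges its nucleotide, one of -0.15 ± 0.33. Hspd1 and Hspe1, the mitochondrial HSP60 and HSP10, were at 0.16 ± 0.14 and 0.20 ± 0.15, with intervals from -0.12 to 0.45 and from -0.12 to 0.51.

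In the wider cytosolic and mitochondrial folding system, of 32 HSF and cytosolic co-chaperone genes 14 were higher and 0 lower, led by Hspa2 (an HSP70 known best from testis, log2 fold change 1.54), Unc45a (a myosin co-chaperone of HSP90, 1.52) and Dnaja4 (an HSP40, 1.15), all past the threshold. Their median was 0.33, below the 0.40 of all genes tested, of which 45.6% were higher and 6.19% lower. Hsf1 itself was at 3.58 log2 CPM in PiZ and 3.38 in WT (limma adjusted p = 0.397). Of the 8 subunits of the cytosolic chaperonin TRiC 5 were higher, with Cct3 at 0.66, Cct4 at 0.49 and Cct7 at 0.40; Cct4 and Cct7 turned to below 0 once libraries were set to the same median. Of 15 other mitochondrial chaperones and proteases 4 were higher, among them Lonp1 (0.70), Yme1l1 (0.53) and Afg3l2 (0.51). On the ER side Sdf2l1 (1.97), Creld2 (1.95) and Pdia6 (1.30) led, Hspa5 was 1.27 ± 0.22 higher (limma adjusted p = 9.3e-05) and Ddit3 1.59 ± 0.26 higher (limma adjusted p = 4.7e-05). Trib3 (3.03) and Atf3 (2.21) were the other leading stress factors, 6 of 10 being higher. Of 9 immediate early genes tested 3 were higher: Atf3, Klf6 (2.39) and Jun (1.23).

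The paired chaperones of cytosol and ER were compared within each library, a difference that no scaling of libraries can change; the pairs were chosen after their values were seen. Hsp90b1 (ER) minus Hsp90ab1 (cytosol) was -0.45 ± 0.15 log2 in PiZ and -1.31 ± 0.19 in WT (SD, n = 5 each), a difference of 0.86 with no overlap (exact permutation test, two-sided, p = 0.00794, the smallest 5 against 5 allows; adjusted p = 0.0346 over 16 comparisons). Hspa5 minus Hspa8 was 0.68 ± 0.31 in PiZ and -0.20 ± 0.25 in WT, a difference of 0.88 (exact permutation p = 0.0159, adjusted p = 0.0508), with PiZ 2 at 0.23 just below WT PBS 1 at 0.24. The second pair missed the threshold after adjustment.

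**Figure D2:**
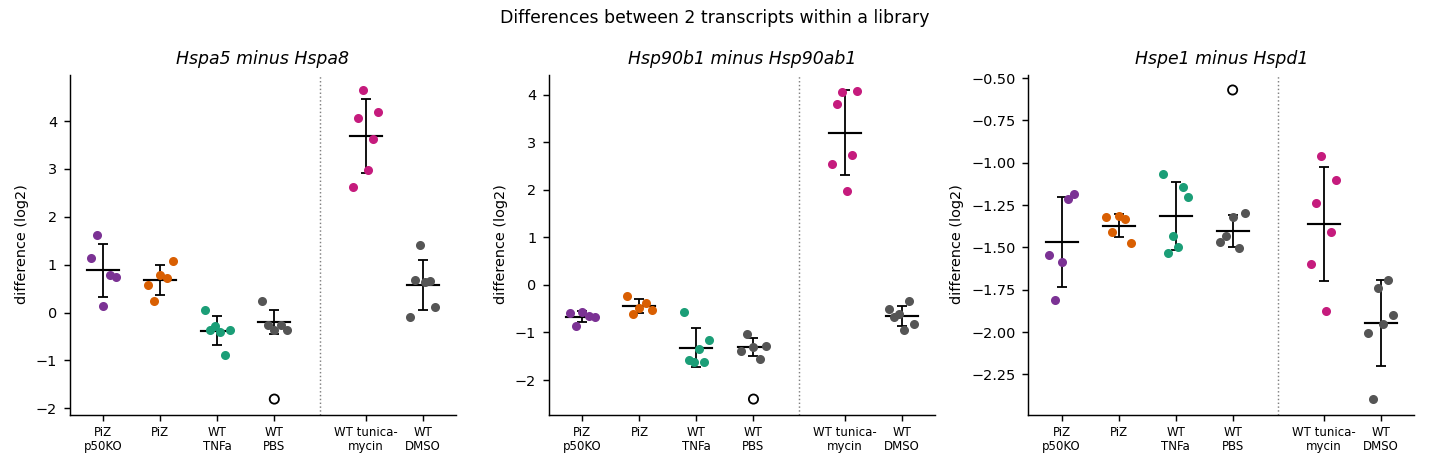
Difference (log2) between an ER chaperone and its cytosolic partner, and between Hspe1 and Hspd1, in each library; points are libraries, bars are mean and SD, and the open circle is WT PBS 2, left out of both. The ER partner stood higher relative to the cytosolic one in tunicamycin libraries (means 3.68 and 3.20) than in DMSO libraries (0.57 and -0.65). The gap was smaller between PiZ (0.68 and -0.45) and WT PBS libraries (-0.20 and -1.31). For Hspa5 and Hspa8, PiZ and WT PBS libraries overlapped and their difference missed the threshold after adjustment.

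TNFa at 2 hours was set against PBS in WT mice as an acute inflammatory signal in mice without the transgene. Hspb1 was 1.96-fold and Hspa8 1.59-fold higher. These were 2 of 10 members, beside 7.63% of all genes higher by limma; 0 members were lower, beside 4.05% of all genes. At an unadjusted p under 0.05, 4 members were higher and 0 lower. The members' median log2 fold change was 0.39, against -0.016 over all genes. Only 1 of 16 ER chaperones was higher, Hyou1 (0.94), with a median of 0.23. Of all calls 65.3% were higher, against 57.9% with quantile normalization and 54.6% with libraries set to the same median, where the members' median was 0.33 and 0.32 and that of the ER chaperones 0.17 under each.

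Hspb1 had a lowest value of 3.61, a median of 4.31 and a highest of 4.49 log2 CPM in the 6 TNFa libraries, against the WT PBS values of 2.48 to 3.72 given above. Only TNFa 4 fell within the WT PBS range. The log2 fold change was 0.97 ± 0.29 (limma adjusted p = 0.0306). Hspa8 was at 9.53, 10.25 and 10.68 (lowest, median and highest) in TNFa, against 9.84, 9.45, 9.69, 9.33 and 9.58 in WT PBS libraries. Here TNFa 6 was the library inside the WT PBS range, and the log2 fold change was 0.67 ± 0.20 (limma adjusted p = 0.0297). Each of the 2 calls was lost in 6 of 11 omissions of a single library, with adjusted p up to 0.0974, while the fold changes stayed at 0.78 to 1.09 and 0.58 to 0.81. Without TNFa 2 or 3, or WT PBS 3 or 6, 0 members passed. Without TNFa 1 or 5 Hspa8 alone passed, and without TNFa 4 or WT PBS 5 Hspb1 alone. With WT PBS 2 put back, 0 passed. Neutrophil markers summed to 7.82 to 104 CPM in TNFa and 2.22 to 21.03 CPM in WT, with 3 of 4 tested higher, and 3 of 8 macrophage markers were higher. Cholangiocyte markers summed to 28.1 to 49.6 CPM in TNFa and 23.4 to 27.0 CPM in WT, with 2 of 5 tested higher, and of 6 endothelial markers 2 were higher and 1 lower. Of 8 stellate and fibroblast markers 1 was lower; the part of these cells in the 2 calls was not tested.

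Hsph1 was at 5.51, 6.30 and 6.86 log2 CPM (lowest, median and highest) in TNFa, against 4.80 to 6.14 in WT PBS, a log2 fold change of 0.74 ± 0.31 that did not pass (limma adjusted p = 0.154). Hsp90aa1 was at 0.51 ± 0.23 (adjusted p = 0.177) and Hsp90ab1 at 0.26 ± 0.15. Hspa1b was at 4.64 to 7.03 in TNFa and 3.55 to 6.46 in WT PBS, a log2 fold change of 0.85 ± 0.68, and Hspa1a was at 0.05 ± 0.77. The mitochondrial pair did not pass, with Hspd1 at -0.12 ± 0.13 and Hspe1 at -0.03 ± 0.15 and intervals from -0.39 to 0.16 and from -0.33 to 0.28, nor did Dnajb1 at -0.09 ± 0.28. Among 32 co-chaperones 2 were higher and 1 lower: Bag3, a partner of HSPB proteins that is itself heat-inducible, at 0.83 and Stip1, which bridges HSP70 and HSP90, at 0.64, against Hsf2 at -0.60. Hsf1 was at 0.06 ± 0.18 (adjusted p = 0.907). No TRiC subunit passed (the greatest change was 0.22, of Cct3). Of 15 mitochondrial genes Htra2 (0.79) was higher and Grpel2 (-0.68) and Hscb (-0.67) were lower. Among all genes tested 7.63% were higher and 4.05% lower. Xbp1, the transcription factor spliced by IRE1, was higher by 1.19, whereas Hspa5 (0.49 ± 0.21, adjusted p = 0.168) and Ddit3 (-0.21 ± 0.25) did not pass. Of 9 immediate early genes tested 4 were higher, led by Ier3 (2.64), Junb (1.72) and Klf6 (1.49).

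Loss of p50 was tested in PiZ mice, with PiZ mice that keep p50 as the comparison. Hspa8 stood at 0.632 times its PiZ level, the only member that passed. That is 1 of 10 lower, beside 21.6% of all genes lower, and 0 higher, beside 3.36%; the same 1 and 0 had an unadjusted p under 0.05. The members' median log2 fold change was -0.27, against -0.22 over all genes and -0.36 over the ER chaperones, of which 4 of 16 were lower. This comparison shares its PiZ libraries with that of PiZ and WT, so the values of each are given separately. Of all calls 13.5% were higher, against 47.6% with quantile normalization and 51.9% with libraries set to the same median, where the members' median was -0.12 and -0.01 and 4 and 0 ER chaperones were lower, with medians of -0.42 and -0.11.

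Hspa8 was at 9.15, 8.99, 9.70, 9.37 and 9.30 log2 CPM in PiZ p50KO libraries, against 10.23, 10.57, 9.96, 9.56 and 9.49 in PiZ libraries. The groups overlapped through p50KO 3. The log2 fold change was -0.66 ± 0.21 (limma adjusted p = 0.0238). Without PiZ 1 or 2, or p50KO 1 or 2, it no longer passed (-0.51 to -0.62). Of 9 other alternative settings it passed in 3. It missed with p50KO 1 and 2 both left out (-0.51) and with libraries set to the same median (-0.40). It also missed with WT PBS 2 put back, without a filter, with only the groups compared and with the replicate block. Hspa1a was at -2.06, -1.36, 0.83, 1.25 and 2.25 and Hspa1b at 0.88, 1.74, 3.74, 4.12 and 5.22 in p50KO libraries 1 to 5. Libraries 1 and 2, the same in which Nfkb1 was near its PiZ level, were the lowest for both. Hspa1b had a log2 fold change of -1.34 ± 0.71 and Hspa1a one of -1.12 ± 0.81, neither past the threshold (limma adjusted p = 0.178 and 0.331).

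The remaining members lay within 0.38 log2 of the PiZ level: Dnajb1 at -0.38 ± 0.29, Hspb1 at -0.33 ± 0.30, Hspe1 at -0.21 ± 0.15, Hspd1 at -0.11 ± 0.14, Hsp90ab1 at 0.03 ± 0.16, Hsp90aa1 at 0.09 ± 0.24 and Hsph1 at 0.11 ± 0.33. For Hspb1, 1 of the 3 members higher in PiZ, p50KO values were 3.18, 4.75, 4.29, 4.67 and 4.99 log2 CPM, and only library 1 lay below the PiZ range of 3.83 to 5.10. In the same comparison all 8 macrophage markers and 7 of 8 stellate and fibroblast markers were lower; the stellate and fibroblast markers summed to 175 to 385 CPM in PiZ p50KO and 597 to 956 CPM in PiZ. Of 5 cholangiocyte markers tested 3 were lower, of 6 endothelial markers 1, of 2 muscle markers tested 1, and of 10 hepatocyte markers 3 were higher; the part of these cells in the Hspa8 difference was not tested. Of 32 co-chaperones 7 were lower and 1 higher, with Hspa2 (-1.42), Bag2 (-1.39) and Hspb8 (-0.59) at the head. Their median was -0.24, against -0.22 over all genes tested, of which 21.6% were lower and 3.36% higher. Of the 8 TRiC subunits Cct4 (-0.47) and Cct2 (-0.26) were lower, and of the 15 mitochondrial genes Lonp1 (-0.50), Hspa9 (-0.40) and Afg3l2 (-0.35). The medians of these 2 lists were -0.22 and -0.08. Hsf1 did not pass (-0.29 ± 0.19, adjusted p = 0.279). Of 10 ER stress factors 4 were lower and 0 higher, and of 9 immediate early genes 2 were lower, Atf3 and Klf6 (-2.18). Ddit3 (-1.25 ± 0.26, adjusted p = 0.0018), Trib3 (-2.56) and Atf3 (-3.04) were lower, and among ER chaperones Dnajb9 (-1.08), Manf (-0.81) and Pdia6 (-0.54); Hspa5 did not pass (-0.46 ± 0.22, adjusted p = 0.138).

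**Figure D3:**
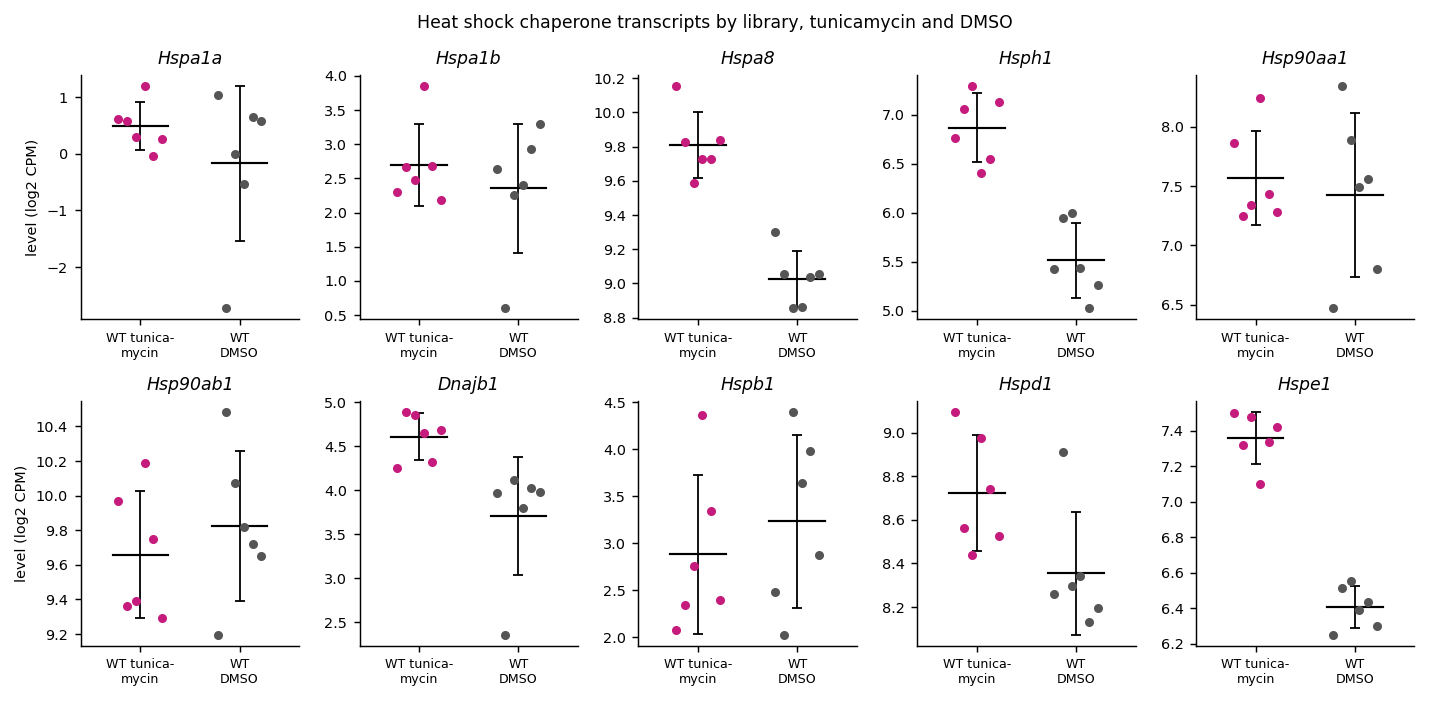
Level (log2 CPM) of each member in each library of the second table; points are libraries and bars are mean and SD. The tunicamycin and DMSO libraries do not overlap for Hspa8, Hsph1, Dnajb1 and Hspe1, and overlap for the other 6 members.

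Tunicamycin, which blocks N-glycosylation and so causes unfolded protein in the ER, was set against DMSO at 24 hours. Hsph1 was 2.55-fold, Hspe1 1.93-fold, Dnajb1 1.87-fold and Hspa8 1.72-fold higher. By limma 4 of 10 members were higher, beside 45.3% of the 13388 genes tested, and 0 lower, beside 13.5%; at an unadjusted p under 0.05 the counts were 5 and 0. The groups did not overlap for the same 4 members, and for 28.5% of all genes in the higher direction. The median log2 fold change was 0.51 for the members and 0.38 for all genes. All 16 ER chaperones were higher, with a median of 3.26. Of all calls 77.1% were higher, against 49.9% with quantile normalization and 45.2% with libraries set to the same median, where the members' median was 0.21 and 0.06 and 15 ER chaperones were higher under each, with medians of 3.06 and 2.81.

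Hsph1 had a lowest value of 6.41, a median of 6.91 and a highest of 7.30 log2 CPM in tunicamycin livers, against 5.03, 5.43 and 6.00 in DMSO livers. The log2 fold change was 1.35 ± 0.20 (limma adjusted p = 0.00012). Hspe1 was at 7.10, 7.38 and 7.50 in tunicamycin livers, against 6.25, 6.41 and 6.56 in DMSO livers. It was 0.95 ± 0.11 higher (limma adjusted p = 1.9e-05), the smallest standard error of the 10 members. Both calls remained in every alternative run, at 0.90 to 1.80 for Hsph1 and 0.50 to 1.10 for Hspe1.

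Hspa8 was at 9.59, 9.78 and 10.16 log2 CPM (lowest, median and highest) in tunicamycin livers, against 8.86, 9.05 and 9.30 in DMSO livers, a log2 fold change of 0.78 ± 0.13 (limma adjusted p = 0.00033). Dnajb1 was at 4.25, 4.67 and 4.89, against 2.36, 3.97 and 4.11, a log2 fold change of 0.90 ± 0.27 (limma adjusted p = 0.0107). Its DMSO minimum came from 1 library, DMSO 2; without it the log2 fold change was 0.63 and still passed. With libraries set to the same median, Hspa8 (0.33) and Dnajb1 (0.45) no longer passed, and Dnajb1 also missed with quantile normalization (0.44, adjusted p = 0.0837).

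The other members did not pass the threshold in the main test. Hspa1a was at -0.03, 0.44 and 1.197 log2 CPM in tunicamycin livers, against -2.73, 0.29 and 1.04 in DMSO livers, and Hspa1b at 2.19, 2.57 and 3.86, against 0.60, 2.52 and 3.30; DMSO 2 was the lowest library for both genes. Their log2 fold changes were 0.65 ± 0.52 and 0.34 ± 0.40 (limma adjusted p = 0.294 and 0.478). Summing the CPM of the pair, which does not depend on how reads are split between them, gave 2.98 ± 0.55 log2 in tunicamycin and 2.60 ± 0.99 in DMSO (SD, n = 6 each; exact permutation p = 0.489, adjusted p = 0.625), and no other comparison of the sum passed. Hsp90aa1 (0.14 ± 0.29), Hsp90ab1 (-0.17 ± 0.22) and Hspb1 (-0.35 ± 0.45) did not pass, the last with values of 2.08 to 4.37 in tunicamycin livers and 2.03 to 4.40 in DMSO livers. The sign of Hsp90aa1 turned with either rescaling of libraries, to -0.22 and -0.31.

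Hspd1 and Hspe1, which share the promoter stretch printed above, did not move equally. Hspd1 was at 8.44, 8.65 and 9.10 log2 CPM in tunicamycin livers, against 8.13, 8.28 and 8.91 in DMSO livers, a log2 fold change of 0.37 ± 0.17 (limma adjusted p = 0.0696). It passed without DMSO 2 (0.48), the highest DMSO library, or without tunicamycin 6 (0.42). Within each library, Hspe1 minus Hspd1 was -1.36 ± 0.34 log2 in tunicamycin and -1.95 ± 0.25 in DMSO, a difference of 0.58 (exact permutation test, two-sided, p = 0.00866; adjusted p = 0.0346 over 16 comparisons). In the other 3 comparisons that difference was 0.03 for PiZ, 0.09 for TNFa and -0.10 for p50KO, with adjusted p of 0.582 to 0.653. The libraries overlapped, from -1.88 to -0.96 in tunicamycin and from -2.40 to -1.69 in DMSO. The lowest DMSO value was that of DMSO 2, and the difference between groups without it was not tested. This test too was chosen with earlier results of these data known.

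Around the members, 18 of 32 co-chaperones were higher and 3 lower in tunicamycin livers, beside 45.3% and 13.5% of all genes tested. Their median was 0.39, against 0.38 over all genes. Hspb8, a small heat shock protein that works with Bag3, rose by 1.69, Unc45a by 1.40 and Fkbp5, an HSP90 co-chaperone of steroid receptors, by 1.34. Hsf1 was at 4.59, 4.94 and 5.19 log2 CPM in tunicamycin, against 3.28, 4.23 and 4.40 in DMSO, and was 0.80 ± 0.20 higher (limma adjusted p = 0.0034). All 8 TRiC subunits were higher, led by Cct7 (1.33), Cct5 (1.23) and Cct2 (1.06), with a median of 0.94. Of 15 mitochondrial chaperones and proteases 11 were higher and 0 lower, with a median of 1.03: Lonp1, the matrix protease, by 2.02, Hspa9, the matrix HSP70, by 1.41 and Clpp, another matrix protease, by 1.36. The ER chaperones were larger in change, with Creld2 at 5.54, Sdf2l1 at 4.17 and Hspa5 at 3.90 ± 0.30 (limma adjusted p = 9.0e-07), as were Atf3 (9.50), Trib3 (6.56) and Ddit3 (6.14 ± 0.65, limma adjusted p = 1.1e-05). Of 10 ER stress factors 9 were higher, and of 8 immediate early genes tested 3: Atf3, Klf6 (1.47) and Jun (1.29). Hepatocyte markers summed to 32000 to 81780 CPM in tunicamycin and 101600 to 129700 CPM in DMSO, with 4 of 10 lower and 0 higher, and 4 of 7 macrophage markers tested, 2 of 6 endothelial, 1 of 8 stellate and fibroblast and 1 of 2 muscle markers tested were lower; their part in the members' changes was not tested.

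Within libraries, Hspa5 minus Hspa8 was 3.68 ± 0.77 log2 in tunicamycin and 0.57 ± 0.52 in DMSO, a difference of 3.12, and Hsp90b1 minus Hsp90ab1 was 3.20 ± 0.90 and -0.65 ± 0.22, a difference of 3.85 (SD, n = 6 each; each exact permutation p = 0.00217, the smallest 6 against 6 allows; adjusted p = 0.0173). In TNFa livers the same differences were -0.38 and -1.32, against -0.20 and -1.31 in WT PBS livers, and did not pass (adjusted p = 0.477 and 0.978). In PiZ p50KO livers they were 0.88 and -0.67, against 0.68 and -0.45 in PiZ livers, and did not pass after adjustment either (adjusted p = 0.625 and 0.0635).

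**Figure D4:**
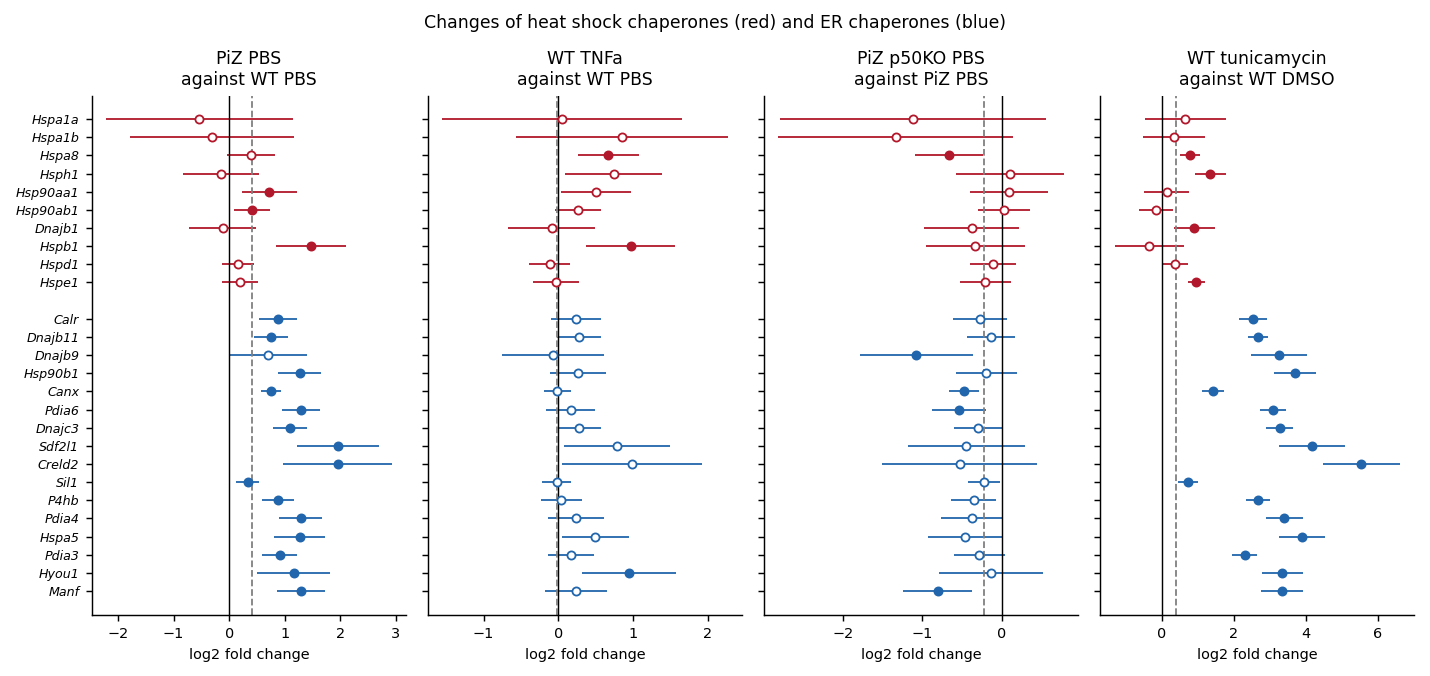
Log2 fold change with its 95% interval for the 10 members (red) and the 16 ER chaperones (blue) in the 4 comparisons; filled points passed an adjusted p of 0.05 and the dashed line is the median of all genes tested. Most members lie to the left of the ER chaperones in the PiZ and tunicamycin panels, with member medians of 0.18 and 0.51 against ER chaperone medians of 1.13 and 3.26.

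The members did not vary as 1 group between libraries. Over deviations from the group means, in 21 libraries of the first table and 12 of the second, Hspa1a and Hspa1b followed each other (Pearson r = 0.96 and 0.87, between genes that share sequence), and Dnajb1 followed their mean (0.84 and 0.82). Hsp90aa1 and Hsp90ab1 formed another pair (0.86 and 0.93), and Hspd1 followed both, with r of 0.69 and 0.71 to Hsp90aa1 and of 0.62 and 0.83 to Hsp90ab1. Between these pairs the relation was inverse over all libraries used: Hsp90aa1 had r of -0.43 and -0.48 with the HSP70 mean. In the second table DMSO 2, lowest of its group for Hspa1a and Hspa1b, was highest for Hsp90aa1 (8.35), Hsp90ab1 (10.48) and Hspd1 (8.91 log2 CPM). Whether the second-table r of these genes hold without that library was not tested. Hspa8 (0.45 and 0.08) and Hsph1 (0.13 and -0.63) followed the HSP70 mean loosely or differently in each table. The non-members most like the HSP70 mean in the first table were Becn1 (0.85), F2r (0.85), Ficd (0.85), Rpl41 (0.84) and Herpud1 (0.81), with r in the second table of 0.53, 0.59, 0.48, 0.58 and -0.03. The points share library, depth and tissue composition, so these values are descriptions, and the first 5 were picked from all genes as the highest.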

How the data were processed

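Liver RNA was sequenced by the submitters. Per the submitters' processing notes, bcl2fastq, DRAGEN, STAR, Subread featureCounts and edgeR were used with GRCm38; settings and strand are not given in the sources used here. The values the authors deposited are log2 CPM per gene, in 2 tables of 55774 rows (55487 IDs; 287 repeats were dropped). Whole reads were recovered from the log2 values (tolerance 0.1 read) to give depth; this depth limits precision by counting error only.

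Genes above 0 log2 CPM in at least 5 libraries (first table, 13285 genes) or 6 (second, 13388) were tested with limma 3.58.1 in R 4.3.3 (two-sided, trend, Benjamini-Hochberg over all genes tested, threshold 0.05), all groups of a table in 1 fit, without WT PBS 2. The members, lists and tests were chosen with earlier results of these data known. Named beside the members were up to 3 passing genes per list and comparison with the greatest change (otherwise the 1 greatest), Hspa5, Ddit3, Hsf1, and the 5 genes most like the mean of Hspa1a and Hspa1b. Single values were tested by exact permutation (scipy 1.17.1). The script was tested on simulated data. Groups came from titles; 3 tunicamycin columns could be placed by group only. Nothing states that libraries are separate mice, so p-values measure the spread between libraries. Coordinates are from GENCODE M21, promoters from RefSeq GRCm38.p6.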

Additional observations from a re-analysis of the deposited data

Results flagged for a closer look

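In 4 of 60 groups of values (each member in each group), 1 library lay far from the others by Dixon's criterion, which chance meets in about 1 of 20 groups. Hsp90ab1 was at 10.334 log2 CPM in PiZ p50KO 2, against 9.431 to 9.665 in the other PiZ p50KO libraries. Hspa1b was at 3.857 in a tunicamycin library, the one with the lowest Ddit3, against 2.189 to 2.675 in the other 5. Dnajb1 was at 2.36 in DMSO 2, against 3.798 to 4.11 in the other DMSO libraries. Hspd1 was at 8.912 in DMSO 2, against 8.13 to 8.342 in the other DMSO libraries. DMSO 2 was thus the lowest DMSO library for Dnajb1, Hspa1a and Hspa1b, and the highest for Hspd1, Hsp90aa1 and Hsp90ab1.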

How the results depend on the processing

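Of 309 values of members under alternatives other than leaving out a library, 263 kept their direction and their side of the threshold, 19 no longer passed, 1 newly passed, 25 that did not pass changed sign or moved, and 1 that passed turned sign; over 430 omissions of 1 library the counts were 383, 23, 2, 22 and 0. With libraries set to the same median, 1 member was higher in PiZ and 2 with tunicamycin (Hsph1 and Hspe1), 0 members and 0 ER chaperones were lower without p50, and Hsp90ab1 (-0.0800), Cct4 (-0.0017) and Cct7 (-0.0901) in PiZ and Cct2 (0.0017) without p50 reversed. With WT PBS 2 put back, 0 members were higher with TNFa, and 0 members and 0 ER chaperones lower without p50; genes called higher and lower were then 2037 and 299 in PiZ (6064 and 822 without it), 294 and 253 with TNFa (1013 and 538) and 69 and 399 without p50 (447 and 2866). Without a filter, 1 member and 0 ER chaperones were higher with TNFa and 0 members lower without p50; 0 members were also lower there with only the groups compared. Setting PiZ p50KO 1 and 2 aside, chosen after seeing the data, left 0 members and 2 ER chaperones lower. Omitting 1 library gave 2 to 3 members higher in PiZ, 0 to 2 members and 0 to 2 ER chaperones higher with TNFa, 0 to 1 members and 2 to 6 ER chaperones lower without p50 (2 without PiZ 3 or PiZ p50KO 1), and 4 to 5 members higher with tunicamycin. Replicate numbers did not pair libraries (correlations of deviations from -0.233 to 0.564). With the replicate block, 2 members were higher and 1, Hsph1 (-0.59), lower in PiZ, 0 higher with TNFa, 0 members and 1 ER chaperone lower without p50, and 4 members higher with tunicamycin, in a fit of the 3 numbers that columns carry. The causes were not tested. Of 532 values of other named genes under alternatives other than leaving out a library, 430 were kept and 95 no longer passed. Another 4 that did not pass changed sign and 3 reversed. Over 741 omissions of 1 library, 656 were kept, 82 no longer passed, 1 newly passed and 2 changed sign. For tunicamycin the groups compared are the whole table. The planned edgeR and DESeq2 fits were not run. The 5 to 6 libraries a group and the spread of Hspa1a and Hspa1b limit what could be detected.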
